A study of Triticum aestivum with 9 samples.

Results

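The transcripts described here had a low signal in wheat grain at 15 days post-anthesis, with higher signals both 4 days earlier and 5 days later. They were measured in whole developing seeds of bread wheat (Triticum aestivum), cultivar Jimai 20, grown in field plots, with no treatment in any group. Seeds were taken 11 days (P1), 15 days (P2) and 20 days (P3) after anthesis, each time in 3 biological replicates with 1 Affymetrix wheat array apiece, 9 arrays in all. On this array a transcript is read by a probe set, a group of short oligonucleotides whose intensities are summarised as 1 signal. Members were chosen by their signals at all 3 phases. A probe set was a member if its mean log2 signal at P2 was lower by 1 or more (2-fold) than at P1 and than at P3. All 3 P2 arrays also had to lie below all 6 others, and the mean signal had to reach 300 at both P1 and P3. Control probe sets were left out, as were those of 2 genes that the rule sets aside. This chose 168 of 61115 probe sets, 0.275%, or 1.09% of the 15415 that reached a mean signal of 300 at P1 and P3 and are called bright here. The mirrored rule, a peak at P2 with a mean signal of 300 or more there, chose 252.

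The weeks covered are those of grain filling, when the starchy endosperm lays down starch and storage proteins, the green pericarp around it loses its photosynthetic machinery and the embryo and aleurone mature toward dormancy. Wheat is hexaploid, so most genes have closely related copies on its 3 subgenomes, and an oligonucleotide can bind transcripts of more than 1 copy. Whole seeds hold all these tissues, and fewer cells of a kind cannot be told apart from less RNA per cell.

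The arrays carried markers of each of these grain parts. The summed signal of 13 probe sets of the pericarp markers PsbO, PsbP, PRK and rbcl lay between 121600 and 134500 on the P1 arrays, between 119700 and 140000 at P2 and between 70150 and 80280 at P3. That of 10 probe sets of the embryo and aleurone markers EM, EMH2, Rab15, LEA1 and WGA2 lay between 6583 and 6992, then between 41600 and 44820, and then between 228400 and 271000. For 4 probe sets of the starch synthesis genes AGA.1, AGP-S and GBSS-I, which stood for the endosperm, the ranges were 53680 to 57290, 50260 to 57560 and 42880 to 47450. The P2 sums of the pericarp and endosperm lists overlapped those of P1, and the embryo list was at its lowest on the P1 arrays, so 0 of the 3 sums had the low point at P2 that defines the members. Single markers differed from their sums. The pericarp sum was carried by 2 rbcl probe sets, with means of 60240 and 45990 at P1 and 64120 and 48710 at P2. PsbO, of photosystem II, went from 8286 to 4567 and then 1703 on Ta.841.1.S1_a_at, PsbP from 8911 to 6473 and 2400 on Ta.85.1.S1_at, and the Calvin cycle enzyme PRK from 3758 to 2689 and 1422. AGA.1 went from 892 to 591 and 400 on Ta.23665.1.S1_at, so these 4 probe sets were lower in mean at each later phase. The other PsbP probe set, TaAffx.120874.1.S1_x_at, went from 1211 up to 1422 and then to 514. The other AGA.1 probe set was below background on every P2 and P3 array. Gliadin and glutenin genes, also markers of the endosperm, were not in its sum. The 12 probe sets of a storage protein list summed to 322000 to 360700 at P1, 344800 to 369700 at P2 and 375100 to 461100 at P3. In that list the gliadin probe set Ta.28632.1.S1_x_at (means 30670, 18260 and 32260) had all P2 arrays below all others. So did the glutenin probe set Ta.160.1.S1_x_at (31530, 26000 and 40600), and the others in the list did not.

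Control transcripts added to the RNA set the P2 arrays apart. In the poly-A controls, which are spiked in before labelling, the 3-prime end exceeded the 5-prime end by a log2 ratio of 2.06 ± 0.07 (SD, n = 3) on the P1 arrays, 1.47 ± 0.04 on the P2 arrays and 2.05 ± 0.07 on the P3 arrays. Their 3-prime log2 level, centred over the 9 arrays, was -0.14 ± 0.02 in P1, 0.44 ± 0.01 in P2 and -0.30 ± 0.04 in P3. In both cases P2 against the other 6 arrays gave an exact two-sided permutation p = 0.0238 (adjusted p = 0.0595 over 5 control measures). That p is the lowest the test can give with the 84 splits of these arrays. Hybridization controls, added after labelling, differed by 0.05 on the log2 scale (exact permutation p = 0.762). Background, the 95th percentile of 64 reporter probe sets foreign to wheat, averaged 94.1 ± 8.09 in P1, 135 ± 27.3 in P2 and 109 ± 8.35 in P3 (exact permutation p = 0.0714). The poly-A measures thus moved with the same 3 arrays as the members, and their part in the dips was not tested. Scaled to the poly-A controls, the P2 signals of all probe sets shift down together, and 2007 probe sets meet the rule, all 168 members among them. Scaled to the hybridization controls, 170 do, of which 147 are members.

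The values in this paragraph are those by which the members were chosen, so they are a description without a test. The median member had a mean signal of 706 in P1, 238 in P2 and 603 in P3. The drop from P1 to P2 ran from 2.0-fold to 26.1-fold with a median of 2.67-fold, and the return from P2 to P3 had a median of 2.45-fold. The highest return with all P2 arrays above background was 7.33-fold, and the deposited signals of a member below background on all 3 P2 arrays gave 22.8-fold. Array by array, the members' median signal was 683, 712 and 704 on the P1 arrays, 240, 233 and 241 on the P2 arrays and 592, 606 and 568 on the P3 arrays. The limma fit described below compares the same phases, so its calls for the members were all but set by the rule. It called 168 lower at P2 than at P1 and 167 higher at P3 than at P2. Of all 36669 probe sets tested, 5.79% and 4.46% were called in those directions. All 3 P2 arrays lay below all others in 9.41% of the probe sets tested. The 3 members nearest the threshold had a smaller step of 1.001, 1.003 and 1.009 on the log2 scale, and the 3 nearest probe sets outside it 0.991, 0.996 and 0.998, so the edge of the group is not marked by a gap.

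**Figure D1:**
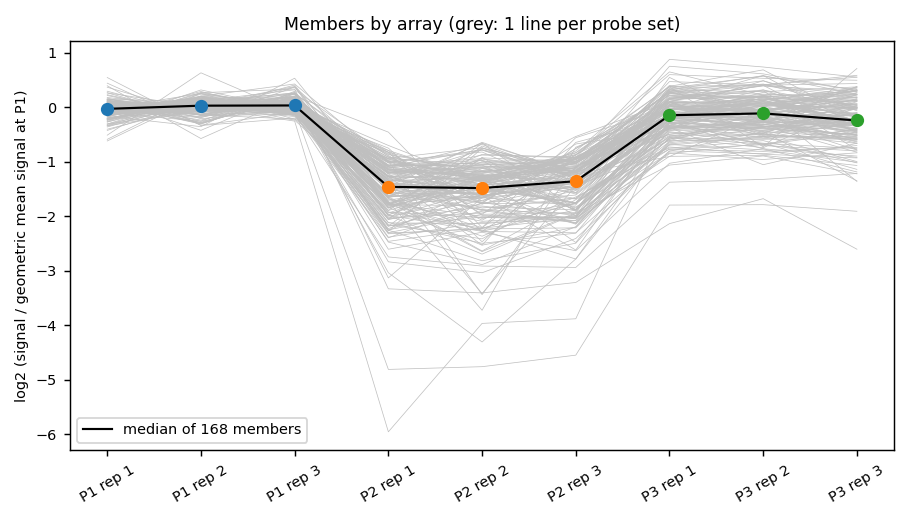
Signal of each of the 168 members on each array (x axis, 9 arrays) as log2 of its ratio to the member's geometric mean signal at P1 (y axis). Grey lines are single probe sets, the black line and the coloured points are the median over members, and the 3 P2 arrays sit together below the 6 others.

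Most members were of modest brightness. At P1 113 of them had a mean signal below 1000, 50 had a signal between 1000 and 10000 and 5 were above 10000. These are 1.62%, 0.687% and 0.424% of the bright probe sets in the same ranges. At P2 the signal was above background on all 3 arrays in 112 members, below it on 1 array in 35, on 2 arrays in 18 and on all 3 in 3. In those 56 members the size of the dip is uncertain, and in the last 3 it is only a bound. With dim signals raised to background 158 of the 168 met the rule.

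The deepest dip with a measured low point was that of TaAffx.143997.1.S1_s_at, which was also among the brightest members. Its signals were 43600, 54040 and 45750 on the P1 arrays, 1695, 1755 and 2032 on the P2 arrays and 13690, 13760 and 12650 on the P3 arrays. All 3 phases were fully apart from each other, with a drop of 26.1-fold and a return of 7.33-fold. P3 stood at 28.1% of P1 (log2 change -1.83, SE 0.09, limma adjusted p = 1.14e-08). The suffix _s_at marks a probe set whose oligonucleotides match more than 1 transcript, so the signal may sum several copies. No gene is paired with this ID in the annotation.

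Another bright member, Ta.30755.1.S1_at, had signals of 28320, 26880 and 24200 at P1, 3930, 3499 and 3439 at P2 and then 10160, 10530 and 11350 at P3. Its drop was 7.30-fold and its return 2.95-fold, again with 3 phases that did not overlap. P3 stood at 40.4% of P1 (log2 change -1.31, SE 0.08, limma adjusted p = 7.09e-08). A second member from the same design cluster, that is, with the same number in its ID, differed in the return. That probe set, with the suffix _x_at for oligonucleotides that can cross-hybridise, had mean signals of 959 at P1, 477 at P2 and 1581 at P3. Its log2 change from P1 to P3 was 0.72, the highest of all members.

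By brightness, taken as the mean of the log2 signals at P1 and P3, TaAffx.42864.3.S1_x_at held the first place among the members and TaAffx.42864.1.S1_at the third. The third read 25880, 27150 and 25920 at P1, 6038, 5973 and 6541 at P2 and then 17720, 17580 and 19630 at P3. The first read 31330, 31370 and 28930, then 12320, 12950 and 11530, then 23810, 23510 and 28250. Both dipped, by 4.26-fold and 2.49-fold from P1, and in both all P3 arrays lay below all P1 arrays. The log2 changes from P1 to P3 were -0.52 (SE 0.07, limma adjusted p = 5.89e-05) and -0.28 (SE 0.08, adjusted p = 0.0186), both under 2-fold.

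The cluster TaAffx.128617 gave 3 members out of 6 bright probe sets with that number. TaAffx.128617.18.S1_x_at had a mean signal of 7989 ± 474 (SD, n = 3) at P1, 1701 ± 248 at P2 and then 4127 ± 288 at P3. TaAffx.128617.5.S1_at had 2533 ± 194, 379 ± 86.6 and 1427 ± 430. For TaAffx.128617.1.S1_x_at the signals were 3417, 3347 and 3745 at P1, 426, 177 and 507 at P2 and then 2669, 3545 and 1360 at P3. P3 replicate 3 was the lowest P3 array in all 3 probe sets, and the P3 signals of the last spread over more than 2-fold. Their log2 changes from P1 to P3 were -0.95, -0.87 and -0.58, and 0 of the 3 passed both criteria. The first and second did pass with arrays scaled to their medians (-1.13 and -1.05) or to the hybridization controls (-1.12 and -1.04), and the second also did without P3 replicate 2 (-1.08).

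The brightest members differed in how far they came back. Ta.396.1.S1_at read 7537, 8113 and 7778 at P1, 3660, 3119 and 3806 at P2 and then 7657, 8041 and 7733 at P3, so that P1 and P3 overlapped (log2 change 0.00, SE 0.08, limma adjusted p = 0.997). Ta.28375.1.S1_at had means of 10350 ± 468, 5153 ± 467 and 10850 ± 815. Ta.1833.2.S1_x_at had means of 4549 ± 1050, 2240 ± 480 and 4706 ± 323, and P1 and P3 overlapped in both. Ta.8890.1.S1_a_at, with means of 5173 ± 316, 1917 ± 166 and 4511 ± 121, had all P3 arrays below all P1 arrays (log2 change -0.20, SE 0.08, limma adjusted p = 0.0722). Ta.22965.1.S1_a_at went past its starting level, with 7453, 7845 and 7563 at P1, 3464, 3143 and 3044 at P2 and then 10530, 10100 and 11400 at P3. All its P3 arrays lay above all P1 arrays, at a log2 change of 0.49 (SE 0.07, limma adjusted p = 0.000168) that is under 2-fold.

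**Figure D2:**
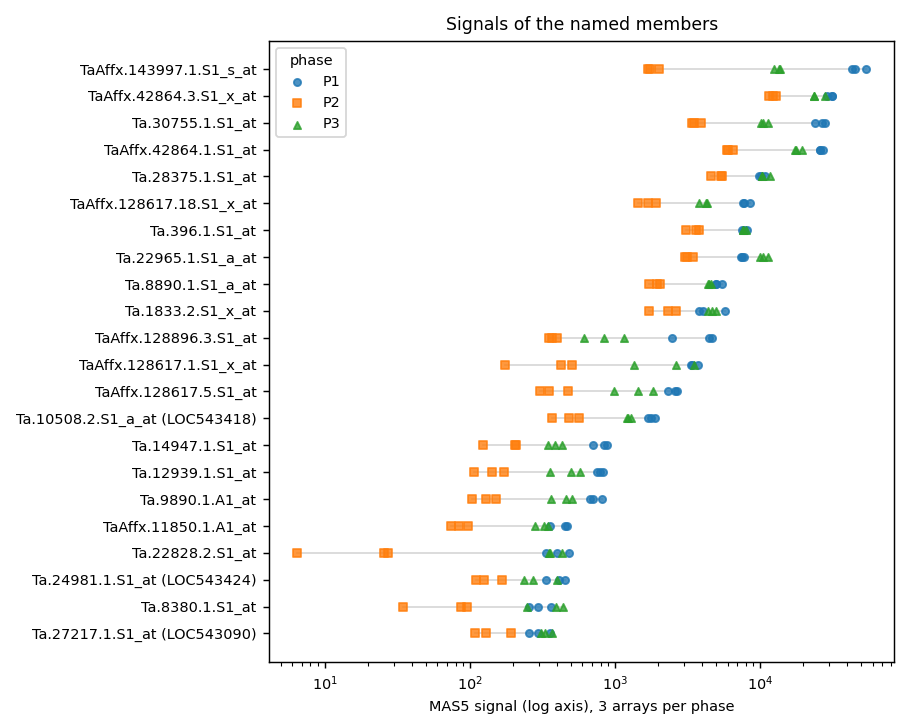
Signals (log axis) of the 22 members named in the text, 3 arrays per phase, with 1 row per probe set ordered by mean signal at P1. Squares (P2) lie left of all circles (P1) and triangles (P3) in every row, which the rule demands, while triangles lie left of, among or right of the circles.

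The lowest signals at P2 were those of dim members. Ta.22828.2.S1_at read 484, 404 and 338 at P1, 6.51, 25.8 and 27.4 at P2 and then 356, 354 and 435 at P3. Its P2 signals were below background on all 3 arrays, so the drop was at least 3.04-fold and the return at least 2.86-fold, with background taken per array wherever the signal was lower. For Ta.8380.1.S1_at, with means of 306, 72.6 and 362, the bounds were at least 2.28-fold and at least 2.64-fold. For TaAffx.11850.1.A1_at, with means of 426, 85.9 and 319, they were at least 3.18-fold and at least 2.39-fold. Ta.9890.1.A1_at (735 ± 73.6, 129 ± 24.7 and 444 ± 71.0) and Ta.12939.1.S1_at (794 ± 39.8, 141 ± 33.2 and 480 ± 112) were below background on 2 and on 1 of the P2 arrays.

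Gene names were scarce among the members. The platform annotation gives 1 gene symbol to 3 of the 168, or 1.79%, against 715 of 15415 bright probe sets, or 4.64%. The other 165 are unnamed here, which does not mean that they lack a gene. The 3 symbols, LOC543418, LOC543424 and LOC543090, are bare locus names of protein-coding genes in the RefSeq table of the wheat assembly, with no function given there. The search patterns for 12 gene lists, from photosynthesis and storage proteins to histones and redox enzymes, found 0 members. With 3 symbols among the members and no function given for any of them, a search by name could find none, so the count says nothing about what the members do.

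For LOC543418 and LOC543424 a second probe set was on the array, with a dip (mean log2 signal of P1 and P3 minus that of P2) of 0.15 and 0.14, against 1.68 and 1.38 in the members as deposited. The member of LOC543418, Ta.10508.2.S1_a_at, read 1775, 1702 and 1884 at P1, 566, 368 and 483 at P2 and then 1290, 1228 and 1222 at P3. The other probe set of that gene, Ta.24991.1.S1_x_at, read 31700, 32250 and 29820, then 21580, 22980 and 22760, then 19200, 19040 and 21440. It was lower at P2 than at P1 (log2 change -0.48, limma adjusted p = 0.000188) and lower again in mean at P3 (-0.65 from P1, SE 0.07, adjusted p = 1.12e-05), neither of them a 2-fold change. The member went from P1 to P3 by -0.52 (SE 0.13, adjusted p = 0.00905).

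The member of LOC543424, Ta.24981.1.S1_at, read 414, 339 and 456 at P1, 167, 111 and 126 at P2 and then 272, 239 and 401 at P3, with 2 of the P2 arrays below background. With those raised to background its drop was 2.57-fold and its return 1.90-fold, which is under the rule's threshold. The other probe set, Ta.24981.2.S1_a_at, read 33960, 37640 and 33140, then 32980, 36970 and 36510, then 40920, 41780 and 49100. Its P1 and P2 arrays overlapped (log2 change 0.02, limma adjusted p = 0.866). The 2 probe sets of each gene therefore differ in their course over the phases, and which of them reads the transcript of the symbol cannot be said from these values. The third, LOC543090, has 1 probe set, Ta.27217.1.S1_at, at 296, 359 and 259 in P1, 110, 193 and 129 in P2 and 311, 332 and 372 in P3.

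**Figure D3:**
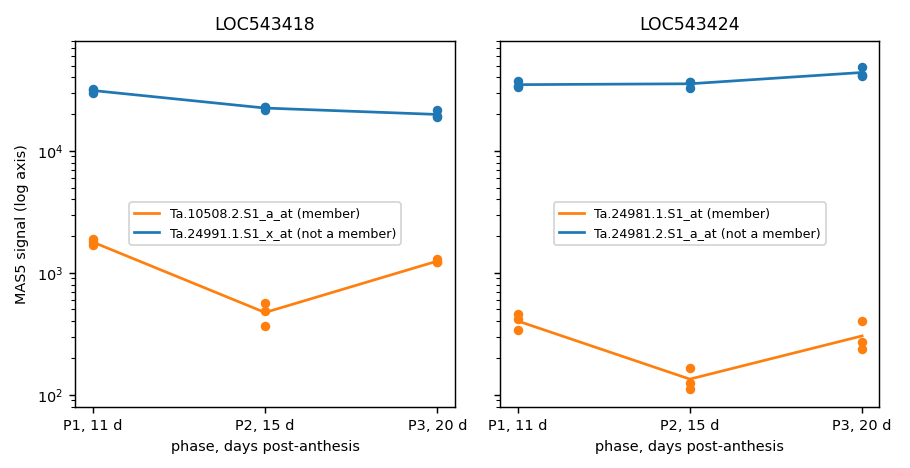
Signals (log axis) at the 3 phases for both probe sets of LOC543418 (left) and of LOC543424 (right), with points for arrays and lines through phase means. The members (orange) dip at P2, and the other probe sets (blue) descend from 31260 to 19890 on the left and go from 34910 and 35490 to 43930 on the right.

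Comparing P3 with P1 asks whether the members returned to, fell short of or passed their earlier level. The rule set neither the sign nor the size of this change, but it did constrain it. The change is the return minus the drop, and both had to reach 1 on the log2 scale. A 2-fold change therefore needs 1 step to exceed the other by 1 or more. The SD of the change was 0.398 over the members and 0.757 over the bright probe sets. The log2 signals of all probe sets outside the lowest 40% were fitted with limma, and a probe set was called at a 2-fold change with an adjusted p under 0.05. All 168 members were in the fit. Of them 4 were called lower at P3 than at P1, 0 higher and 164 neither, which does not show that those 164 were level. Over all 36669 probe sets tested 4.76% were called lower and 8.36% higher, and over the 15415 bright ones 5.18% and 5.93%. The count of members with an unadjusted p under 0.05 by limma was 53. No share of all probe sets was taken at that threshold, so the count is not a result about the members. Members had to reach the signal minimum in both phases, as the bright probe sets did. The bright probe sets were not held to a drop and a return, however. Low shares of calls among the members are thus partly built in, and setting them beside the other shares is no test. With arrays scaled to their medians 10 members were called lower and 0 higher, and with arrays scaled to the hybridization controls 9 and 0. Calls of lower over all probe sets tested rose as well, from 1746 to 2509 and 2428, so these counts are no result about the members.

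The 4 that fell were TaAffx.143997.1.S1_s_at and Ta.30755.1.S1_at, given above, with TaAffx.128896.3.S1_at and Ta.14947.1.S1_at. TaAffx.128896.3.S1_at read 2472, 4471 and 4686 at P1, 370, 351 and 401 at P2 and then 847, 1163 and 612 at P3. P1 replicate 1 was far below the other P1 arrays and still above every P3 array, and the log2 change was -2.14 (SE 0.25, limma adjusted p = 2.22e-05), the lowest of all members. Ta.14947.1.S1_at read 842, 710 and 884, then 204, 125 and 209, then 387, 434 and 346 (log2 change -1.06, SE 0.20, adjusted p = 0.00119). Its call ended without P1 replicate 3 (-0.997), without P3 replicate 3 (-0.98) and with arrays scaled to the poly-A controls (-0.90).

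Smaller shifts from P1 to P3 leaned downward. The members' median log2 change was -0.15, with quartiles of -0.41 and 0.06, and the P3 mean was below the P1 mean in 113 of 168, or 67.3%. The median over the bright probe sets was -0.01, with 51.3% below. At an adjusted p under 0.05 by limma, whatever the size, 34 members were lower and 6 higher, where 15.7% and 19.2% of all probe sets tested were. All P3 arrays lay below all P1 arrays in 63 members and above them in 13, and the phases overlapped in 92. Over all probe sets tested 21.2% lay below and 26.5% above. These shares of all tested include probe sets dimmer than the members, and none was taken over the bright ones alone. Among members below a signal of 1000 at P1 the median change was -0.12 against 0.11 for bright probe sets in that range. Between 1000 and 10000 the medians were -0.15 and -0.14. The sign of the median depended on the scaling: with arrays scaled to their medians it was -0.32, to the hybridization controls -0.31 and to the poly-A controls 0.01. Those scalings move all probe sets alike, and the median of all tested went from 0.07 to -0.11, -0.10 and 0.23. Relative to it the members' median was at -0.21 as deposited and under each of the 3, where it could not change. Under quantile normalization that difference was -0.19, and with dim signals raised to background it was -0.32.

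**Figure D4:**
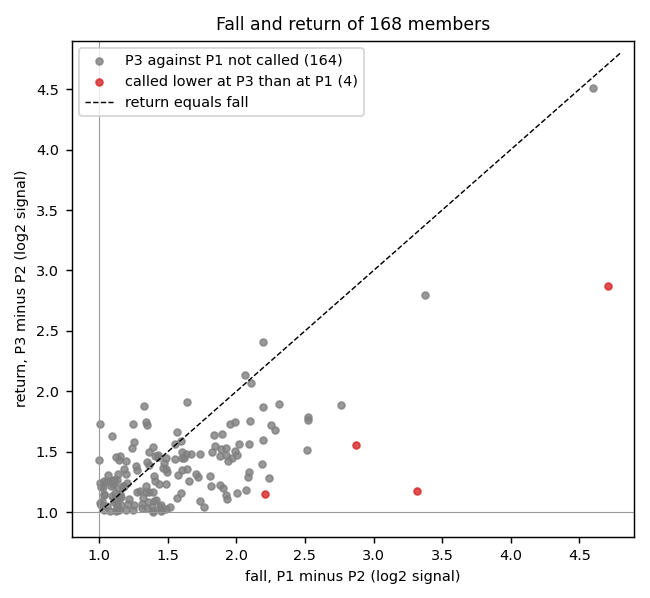
Drop from P1 to P2 (x axis) against return from P2 to P3 (y axis) for the 168 members, both as differences of mean log2 signal, with the thresholds at 1 as thin lines. Red points are the 4 members called lower at P3 than at P1, all below the dashed line of equal steps; the point near 4.6 on both axes is Ta.22828.2.S1_at, below background at P2.

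Within a phase the arrays did not take equal shares of the lowest member signals. P3 replicate 3 was the lowest P3 array in 88 members, or 52.4%, and in 36.2% of the bright probe sets. P2 replicate 2, one of the 2 arrays with the highest background (153), was the lowest P2 array in 73 members, or 43.5%, against 35.0%. P1 replicate 1 was the lowest P1 array in 48.2%, against 40.8%. The median distance of P3 replicate 3 from its phase mean was -0.05 on the log2 scale for members and 0.01 for the bright probe sets. Without P3 replicate 3, 174 probe sets met the rule, 153 of them members.

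The IDs record how each probe set was designed, which the rule did not use. Those with an A in place of an S in the last field, a mark of orientation, made up 44 of 168 members, or 26.2% (95% exact binomial interval 19.7% to 33.5%, counting error only), 18.6% of the bright probe sets and 10.7% of the 252 with a peak. The TaAffx prefix was on 20.8% of the members (15.0% to 27.8%), 16.9% of the bright probe sets and 78 of the 252 with a peak. The suffix _x_at was on 12.5% (7.91% to 18.5%), 19.2% and 15.1%. Members that share a cluster are not independent draws, so the intervals are too narrow. The members were also dimmer, with a median P1 signal of 706 against 1155 for the bright probe sets. No share was taken at matched brightness.

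The 168 members came from 149 clusters, of which 15 held 2 or more members. Ta.647 had 3 bright probe sets and all were members, with mean signals of 960 to 5734 at P1, 248 to 1344 at P2 and 661 to 3391 at P3. In Ta.681 3 of 5 were members, at 2643 to 2850, 1180 to 1393 and 2822 to 3324, and in Ta.7410 3 of 4 were, at 377 to 1136, 173 to 306 and 356 to 663. The return was incomplete in mean in Ta.647 (log2 changes from P1 to P3 of -0.76 to -0.39) and close to level in Ta.681 (-0.01 to 0.32). Probe sets of 1 cluster can share oligonucleotides, so they are partly repeats of 1 measurement.

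Other bright probe sets in the members' clusters had not met the rule, so a dip smaller than that of the members is largely built in. In 26 clusters with the Ta prefix, 42 such probe sets were not members, 21 of them with the suffix _s_at or _x_at. Their median dip was 0.84, with quartiles of 0.58 and 1.03. It was above 0 in 40 of 42, or 95.2%, and all P2 arrays lay below all others in 30, or 71.4%. For the other bright Ta probe sets the median was 0.05, with 54.6% above 0 and 14.2% with all P2 arrays lowest. In TaAffx clusters the 43 such probe sets had a median of 0.04 with an upper quartile of 0.68, against a median of 0.05 for the other bright TaAffx probe sets. All P2 arrays were lowest in 20.9% of the 43 and in 11.6% of the others. Over all 85 such probe sets, of both prefixes, the median dip was 0.58, with 75.3% above 0.

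**Figure D5:**
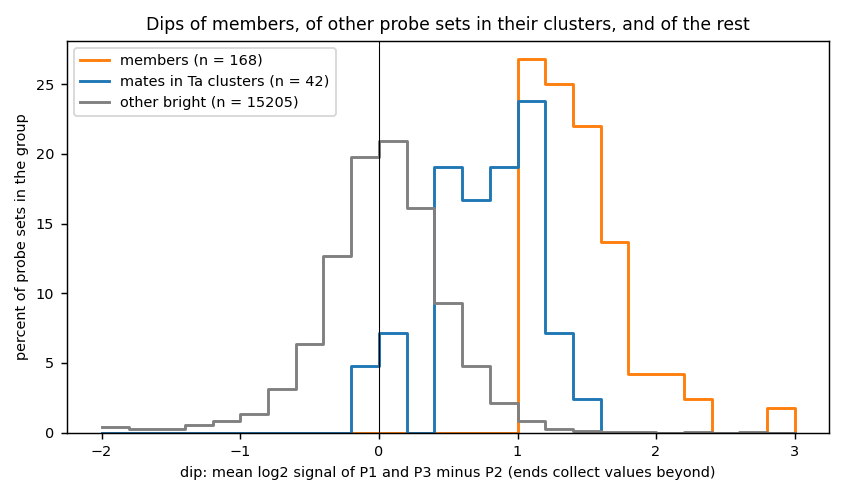
Distribution of the dip (x axis, mean log2 signal of P1 and P3 minus P2) for the 168 members, for 42 other bright probe sets in their Ta clusters and for the remaining 15205 bright probe sets, as percent of each group (y axis). The members start at 1 by the rule, the probe sets of their Ta clusters have a median of 0.84, and the rest lie around 0. The rest include the 43 from the members' TaAffx clusters, with a median of 0.04.

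Informative names were given to 161 tested probe sets of 92 genes. None of the members' symbols is among them and the rule set aside 2 probe sets that met its thresholds, so the absence of members here was fixed in advance. All P2 arrays lay below all others in 16 of the 161, or 9.94%, close to the 9.41% of all probe sets. The probe sets described next had the steps nearest to the threshold, were picked out after their values were seen, and stand beside the other probe sets of their genes. LOC780582, an avenin-like storage protein gene, had Ta.905.2.S1_x_at at 48400, 51150 and 44210 in P1, 23630, 24820 and 25800 in P2 and 44260, 43090 and 59950 in P3. Its drop was 0.95 and its return 0.97 on the log2 scale, and they were 1.18 and 0.92 on Ta.905.2.S1_at. For the histone gene wcH2A-9 (LOC732714), whose product packs DNA into nucleosomes, the drop on Ta.27657.14.S1_s_at was 0.99 and the return 0.85. Its 5 other probe sets had drops of 0.17 to 0.88 and returns of -0.07 to 0.61. DMAS1 (LOC100037594), an enzyme for the iron-binding phytosiderophores of grasses, had 1.18 and 0.76 on Ta.5335.1.A1_at, 0.95 and 0.25 on Ta.5335.1.A1_x_at and 0.45 and 0.64 on Ta.5335.3.S1_a_at. The probe sets of 1 gene thus differed among themselves in the size of both steps.

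The gene lists were fixed with earlier results of these data known, and their medians are given as a description, since members were chosen for their dip and list genes were not. The lists include dim probe sets, with 8 of 14 bright in photosynthesis and 2 of 11 in the late embryogenesis list. Matching by name also gave errors. The late embryogenesis list took in Ta.141.1.S1_at of GA20ox1d through its synonym wga20, with a dip of -0.14. That is not a late embryogenesis gene. The same list holds the lectin gene WGA2, with a dip of -3.05. Its signals were below background on all P1 arrays. Its means rose from 44.8 to 6280 and 17420, so that value does not mark a peak at P2. The storage protein list took in GLU1A (Ta.4601.2.S1_at), which is not a storage protein gene, at a dip of -0.86. That probe set was below background on every P2 and P3 array. Missing from the list were both probe sets of the avenin-like gene LOC780582, with dips of 0.96 and 1.05. The median dip was 0.32 over 17 probe sets of histone genes and 0.15 over 12 of redox enzymes. It was 0.09 over the 12 in the storage protein list and 0.16 over 3 of translation factors. The median was 0.01 over 10 of inhibitors, -0.04 over 6 of thionins, -0.17 over 4 of starch synthesis and -0.26 over 10 of tubulins. In photosynthesis it was -0.40 over 14, and in the late embryogenesis list -0.64 over 11. The 1 heat shock probe set, hsp16.9A, was at -3.10. Over all bright probe sets the median was 0.05. In the redox list 2 probe sets, 1 of Prx1 and 1 of CAT1, had a drop and a return of 1 or more, both below background on every P2 and P3 array. The list for transcription factors had no probe set in the annotation.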

How the data were processed

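The authors deposited 1 linear signal (intensity) for each of 61290 probe sets on each of 9 arrays, made with MAS5 per the submitters' processing notes (version not given in the sources used here). The deposited intensity values have a mean of 500.1 per array with 2% trimmed at each end, and changes are relative to that scale. No detection calls were used. Precision is limited by 3 arrays per phase.

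Groups and replicate numbers came from the sample titles. The 111 AFFX and 64 RPTR control probe sets were left out. Log2 signals (pseudocount 0) of the 36669 probe sets above the lowest 40% by mean log2 signal were fitted with limma 3.58.1 in R 4.3.3, with phase as the factor, an intensity trend and Benjamini-Hochberg adjustment over all of them. A call needed an adjusted p under 0.05 and 2-fold. The fit was tested on simulated data. Control measures were compared by exact permutation. The platform annotation gives 1273 probe sets a single symbol (1 gene), leaves 59842 unnamed and gives 0 more than 1, and 770 of its 771 genes matched the RefSeq table of assembly IWGSC CS RefSeq v2.1, used for names only. Sequences and promoter motifs were not analysed here.

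The members, the lists and the tests were chosen with earlier results of these data known. Named are members with a symbol, the 10 largest dips, the 10 brightest, and the called members with the highest and lowest changes from P1 to P3, up to 20 IDs, besides clusters of 3 or more members. Alternatives were other scalings, filters, covariates and thresholds, and leaving out each array.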

Additional observations from a re-analysis of the deposited data

How the results depend on the processing

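The number of probe sets that meet the rule was 168. It was 137 under quantile normalization, 160 under median scaling, 143 with a pseudocount of 16 and 158 with dim signals at background, of which 133, 141, 143 and 158 were members. It lay between 157 and 198 when each array was left out in turn. It was 2007 under scaling to the poly-A controls, where all P2 signals are lowered together, 31 and 319 with steps of 1.5 and 0.8, and 49 and 486 with signal minimums of 1000 and 100. The number with a peak at P2 was 252, or 58 under scaling to the poly-A controls.

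Members called lower at P3 than at P1 numbered 4, or 10 with arrays scaled to their medians and 9 to the hybridization controls, and 3 to 6 without single arrays. Members called higher were 0 under every alternative run. The members' median log2 change turned from -0.15 to 0.0130 under scaling to the poly-A controls. That scaling moves all probe sets alike, so relative to the median of all tested the members' median stayed at -0.21. Over all probe sets 3067 were called higher and 1746 lower, rises being 63.7% of the calls, or 48.0% with arrays scaled to their medians, 48.6% to the hybridization controls and 75.9% to the poly-A controls.

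With the replicate block 4 members were called lower and 0 higher, and over all probe sets 3044 were higher and 1729 lower. Deviations of arrays with the same number correlated at -0.05 to 0.03 over 9 pairs, so the numbers were not taken to pair samples. Signals near background at P2, in 56 members on at least 1 array, limit how well the depth of a dip is known.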
